A study of Homo sapiens with 24 samples.

Results

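The genes followed here code for growth factors of fibroblasts and vessels and for 2 of their receptors: the ligands *VEGFA*, *VEGFC*, *FGF1*, *FGF2*, *FGF5*, *FGF7*, *HGF* and *PDGFA*, and the receptors *PDGFRA* and *PDGFRB*. They were chosen by symbol and matched by Entrez Gene identifier, which found 10 of 10 among the 25702 identifiers counted, and 10 of 10 were among the 13356 genes that passed the filter on low counts.

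The samples were RNA-seq libraries of IMR90 cells, a human lung fibroblast strain, taken at passages 23 to 28 with 6 biological replicates in each of 4 groups. All 24 samples carried ER:HRAS(G12V), an oncogenic RAS protein fused to a part of the oestrogen receptor that 4-hydroxytamoxifen (4OHT) switches on, so the growing cells carried the silent oncogene as well. Growing cells had the empty MSCV vector and no agent, shHMGA1 cells had MSCV miR30 shHMGA1, a hairpin against the chromatin protein HMGA1, and no agent. RIS cells (RAS-induced senescence) had the empty MSCV vector and 6 days of 4OHT, and RIS+shHMGA1 cells had the hairpin and 6 days of 4OHT. All samples came from 1 fibroblast strain, every hairpin group rests on the same construct, and 4OHT came with RAS activation in every treated sample, so that their effects cannot be told apart.

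VEGF, FGF, PDGF and HGF ligands are secreted proteins that bind receptor tyrosine kinases on neighbouring cells. Fibroblasts supply many of them to endothelium and epithelium, and are themselves driven to divide by FGF and PDGF through FGFR1 and the PDGF receptors. Senescent fibroblasts no longer divide but continue to secrete, and VEGFA and HGF are among the factors described in their secretome.

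Total counts ranged from 8698070 to 23103424 per sample. HMGA1, the target of the hairpin, lay between 639 and 861 CPM (counts scaled to the normalised size of the library) in growing cells and between 54.4 and 143 CPM in shHMGA1 cells. It lay between 641 and 786 CPM in RIS cells and between 60.0 and 262 CPM in RIS+shHMGA1 cells. Growing replicate 4 and RIS replicate 2 stood apart from their labels: MKI67, a proliferation marker, was at 3.73 CPM in growing replicate 4 against 87.6 to 152 CPM in the other growing samples, and at 141 CPM in RIS replicate 2 against 3.16 to 6.85 CPM in the other RIS samples. Both were kept in their labelled groups. For comparisons that contain one, the counts of genes called and most changes of members are also given without the pair. All 8 fibroblast markers examined passed the filter, and the median of their summed level was 27600 CPM in growing and 18400 CPM in shHMGA1 cells, against 7640 CPM after 4OHT with the empty vector and 4950 CPM with the hairpin. Of 8 endothelial markers 5 passed, with *TEK* at 13.1 to 123 CPM, and PECAM1, CDH5 and VWF stayed at or below 1.27 CPM in all 24 samples. In the 4OHT comparison of cells with the hairpin 3 of these 5 were called higher (*TIE1*, *CLDN5* and *ROBO4*) and *TEK* lower, with a summed level of 75.9 to 132 CPM without and 33.2 to 45.8 CPM with 4OHT. The summed level was 1.29 to 7.57 CPM for 7 epithelial markers and 40.8 to 106 CPM for 7 blood markers, of which 1 each passed. The part of these markers in the results below was not tested.

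In the human genome build GRCh37, *FGF7* lies on chr15:49715434-49780972 (plus strand), *PDGFRB* on chr5:149493402-149535435 (minus strand) and *VEGFC* on chr4:177604689-177714076 (minus strand). HMGA1 binds AT-rich DNA, so the most AT-rich 30 bases within the 250 bases before the RefSeq start are shown for the 3 members that had a single start and whose shown bases fell outside the GENCODE gene. *FGF7* and *PDGFRB* are also members whose samples with hairpin did not overlap the samples without it in 1 comparison below, *FGF7* being higher and *PDGFRB* lower. *HGF* was separated as well, but its bases lay inside the gene. *VEGFC* is the member that moved least with 4OHT in cells with the hairpin. A relation of the bases to these changes was not tested. Capitals mark runs of 4 or more A or T.
FGF7: ttgtagATTTAAgcATAAAAcatgttcata
PDGFRB: taagcagagtgAAAAgaagAAAAAcaagaa
VEGFC: tccctccctcggccgctttctctcacATAA
The *FGF7* stretch (chr15:49715265-49715294, plus strand) held 23.3% G or C, and 13.5% of the 15181 promoter windows of tested genes had a stretch as low or lower. The *PDGFRB* stretch (chr5:149535605-149535634, minus strand) held 30%, a value reached by 24.9% of windows. The *VEGFC* stretch (chr4:177714101-177714130, minus strand) held 56.7%, and 87.0% of windows went as low or lower. Over its 300 bases the *FGF7* window held 40.3% G or C, that of *PDGFRB* 59.3% and that of *VEGFC* 76.3%, against a median of 64.7% over all windows. Of the members not shown, the lowest stretch held 16.7% in *FGF5*, 23.3% in *FGF1* and *PDGFRA* and 30% in *HGF*. It held 46.7% in *PDGFA* and 53.3% in *FGF2*, and of these members only *HGF* was separated by the hairpin. These letters describe the reference sequence only, and binding was not measured here.

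To compare levels between genes, counts were divided by the length of the canonical transcript (RPKM). The counts are per gene, and the exons of all transcripts of *VEGFA* cover 14431 bases against 3609 in the canonical one. These lengths were 2618 and 2262 bases for *VEGFC* and 6801 and 6652 for *FGF2*, so the place of *VEGFA* among the genes depends on the length used. *VEGFC*, which drives lymphatic vessel growth, had the highest level of the 10 genes in dividing cells, at 83.6 ± 20.6 RPKM in growing and 82.5 ± 5.6 RPKM in shHMGA1 cells (SD, n = 6). In shHMGA1 cells no sample of another member reached the *VEGFC* samples. In growing cells each neighbour in the order overlapped the next, and *FGF2* came second at 37 ± 17.4 RPKM. Without growing replicate 4 *PDGFRB* was second at 32.2 RPKM and *FGF2* next at 31.3 RPKM, with overlapping ranges. In RIS+shHMGA1 cells 3 genes shared the top with overlapping ranges: *VEGFA* at 70.3 ± 4.57, *VEGFC* at 69.4 ± 15.3 and *FGF2* at 68.8 ± 15.9 RPKM. A gap without overlap then led to *FGF5* at 15.8 ± 1.64 RPKM. *FGF1* was lowest in both 4OHT groups, with 1.88 ± 2.63 RPKM in RIS (0.81 ± 0.23 RPKM without replicate 2) and 1.16 ± 0.42 RPKM in RIS+shHMGA1 cells, where it overlapped *PDGFA* at 1.46 ± 0.25 RPKM.

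**Figure D1:**
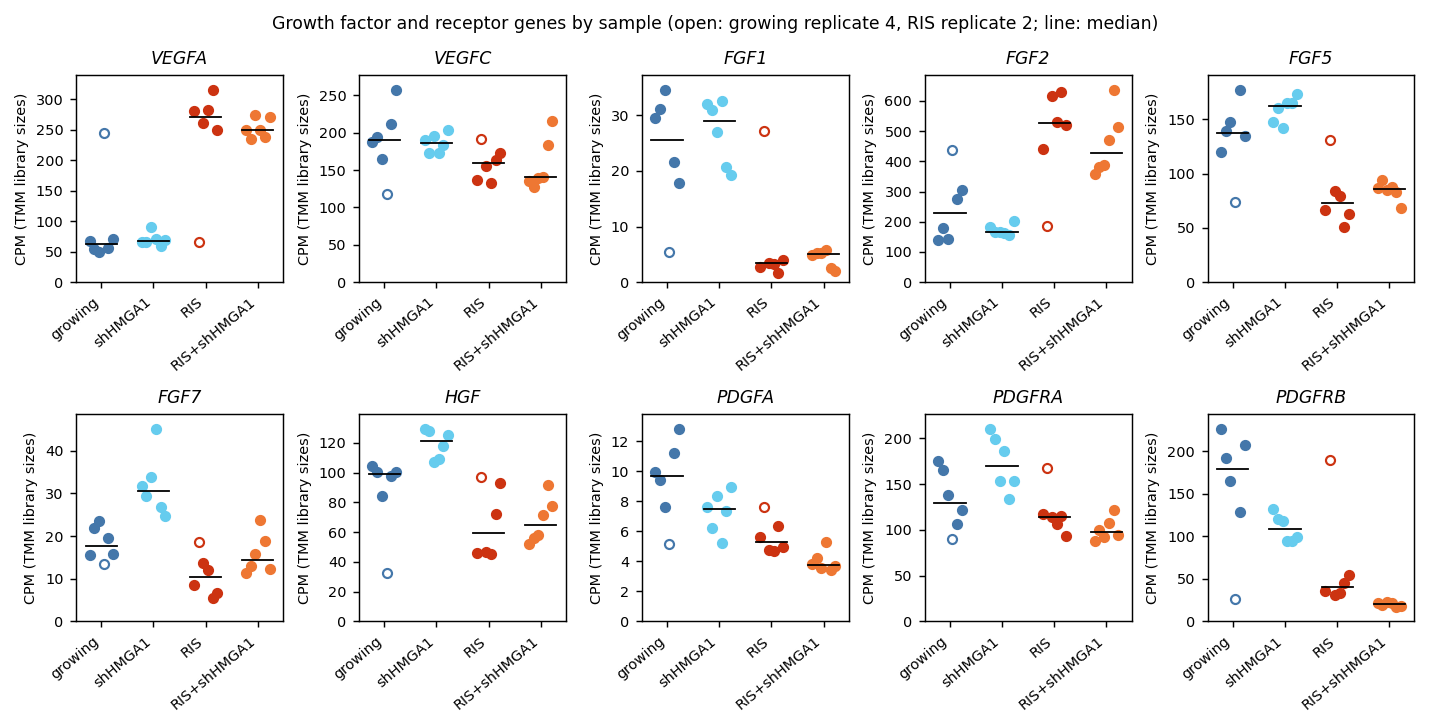
Level of each of the 10 genes in every sample, as CPM on a linear axis, with 6 samples per group and the group median as a line. *VEGFA* lay between 235 and 275 CPM in RIS+shHMGA1 and between 59.5 and 90.9 CPM in shHMGA1 cells, while growing replicate 4 and RIS replicate 2 (open circles) fell with the opposite group.

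The 4OHT response was first read in the cells with the hairpin, because neither of the 2 departing libraries is in that comparison. The 24 samples share 1 estimate of the spread, so both libraries still enter the standard errors and p-values given for it. In a fit to the samples of this comparison alone, the standard error was 0.10 for *VEGFA* and 0.11 for *PDGFRB*, against 0.35 and 0.42. In RIS+shHMGA1 against shHMGA1 cells, *VEGFA* and *FGF2* rose, whereas *FGF1*, *FGF5*, *FGF7*, *HGF*, *PDGFA*, *PDGFRA* and *PDGFRB* fell. Thus 9 of 10 members passed the thresholds of the study (false discovery rate, FDR, under 0.01 and a log2 fold change beyond 0.58 either way), against 39.1% of all genes tested. Of these 2 were higher and 7 lower, where 19.6% of all genes were higher and 19.5% lower. In 8 of 10 members all 6 samples of one group lay outside the range of the other, against 43.4% of all genes. The median log2 fold change was -0.84 over the members and -0.02 over all genes tested. In bulk RNA, fewer cells of a type and less RNA per cell cannot be told apart, and this holds for every level given here.

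Of the vascular ligands, *VEGFA*, the main signal for new blood vessels, lay between 59.5 and 90.9 CPM (median 67.7) in shHMGA1 and between 235 and 275 CPM (median 250.2) in RIS+shHMGA1 cells. Every sample with 4OHT was above every sample without it. The change was 3.6-fold (log2 1.85 ± 0.35, standard error, adjusted p = 0.000322; quasi-likelihood test of edgeR, adjusted by Benjamini-Hochberg, as for all adjusted p-values that follow). *VEGFC* lay between 172 and 204 CPM (median 187) in shHMGA1 and between 128 and 215 CPM (median 140.3) in RIS+shHMGA1 cells. The ranges overlapped, with 5 of 6 same-numbered samples lower, and the log2 change of -0.25 ± 0.15 did not pass (adjusted p = 0.156).

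The 4 fibroblast growth factors did not move as a family. *FGF2*, a heparin-binding mitogen of fibroblasts and endothelium, lay between 156 and 202 CPM (median 165) in shHMGA1 and between 358 and 636 CPM (median 429) in RIS+shHMGA1 cells, with no overlap. It rose 2.66-fold (log2 1.41 ± 0.27, adjusted p = 0.000352). *FGF1*, its close relative, which also lacks a classical secretion signal, fell 6.27-fold. It went from 19.2 to 32.5 CPM (median 29.0) down to 2.08 to 5.85 CPM (median 5.06), without overlap (log2 -2.65 ± 0.54, adjusted p = 0.000539). This was the largest change of the 10 genes in this comparison.

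*FGF5*, known as a brake on hair growth, lay between 142 and 174 CPM in shHMGA1 and between 68.1 and 94.1 CPM in RIS+shHMGA1 cells, and its groups did not overlap. It fell 1.89-fold (log2 -0.92 ± 0.19, adjusted p = 0.000522). *FGF7*, the keratinocyte growth factor that mesenchyme supplies to epithelium, lay between 24.7 and 45.0 CPM (median 30.5) in shHMGA1 and between 11.4 and 23.8 CPM (median 14.4) in RIS+shHMGA1 cells. The lowest sample without 4OHT was just above the highest with it. *FGF7* fell 2.01-fold (log2 -1.01 ± 0.24, adjusted p = 0.00169), and without the samples numbered 1 it no longer passed (log2 -0.95, adjusted p = 0.0112). With the samples of this comparison alone *FGF7* passed (adjusted p = 4.33e-05).

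*HGF*, the mesenchymal ligand of the MET receptor, lay between 107 and 129 CPM (median 121) in shHMGA1 and between 52.0 and 91.5 CPM (median 64.8) in RIS+shHMGA1 cells. The groups did not overlap, and the fall was 1.76-fold (log2 -0.81 ± 0.23, adjusted p = 0.0053). This call was the least stable of the 9 when a replicate number was left out. *HGF* did not pass without the samples numbered 1, 2, 3 or 6 in turn (adjusted p of 0.0256, 0.0201, 0.0202 and 0.0131, with log2 changes from -0.84 to -0.74). Those fits still held growing replicate 4, RIS replicate 2 or both, which enter the shared spread. *HGF* passed with the samples of this comparison alone (adjusted p = 1.66e-05) and without the departing pair (adjusted p = 7.92e-05).

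In the PDGF system the ligand and both receptors fell. *PDGFA*, a ligand of PDGFRA, lay between 5.22 and 8.94 CPM in shHMGA1 and between 3.41 and 5.26 CPM in RIS+shHMGA1 cells. The groups overlapped by a single sample on each side (log2 -0.88 ± 0.19, adjusted p = 0.000842). *PDGFRA*, a receptor that marks many fibroblasts, lay between 134 and 210.0 CPM (median 170.0) before and between 87.4 and 122 CPM (median 97.4) after 4OHT, without overlap. It fell 1.72-fold (log2 -0.78 ± 0.16, adjusted p = 0.000608). *PDGFRB*, the receptor for PDGF-B that fibroblasts share with pericytes, fell further, from 94.4 to 133 CPM (median 108) down to 17.0 to 23.4 CPM (median 20.6). The change was 5.42-fold (log2 -2.44 ± 0.42, adjusted p = 0.000243). Markers of mural cells, the vessel-wall cells known for PDGFRB, fell beside it: 6 of 7 passed the filter, none was at 0 in all samples of a group, and their summed level was 351 to 446 CPM in shHMGA1 and 138 to 160 CPM in RIS+shHMGA1 cells. Their part in the change of *PDGFRB* was not tested.

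**Figure D2:**
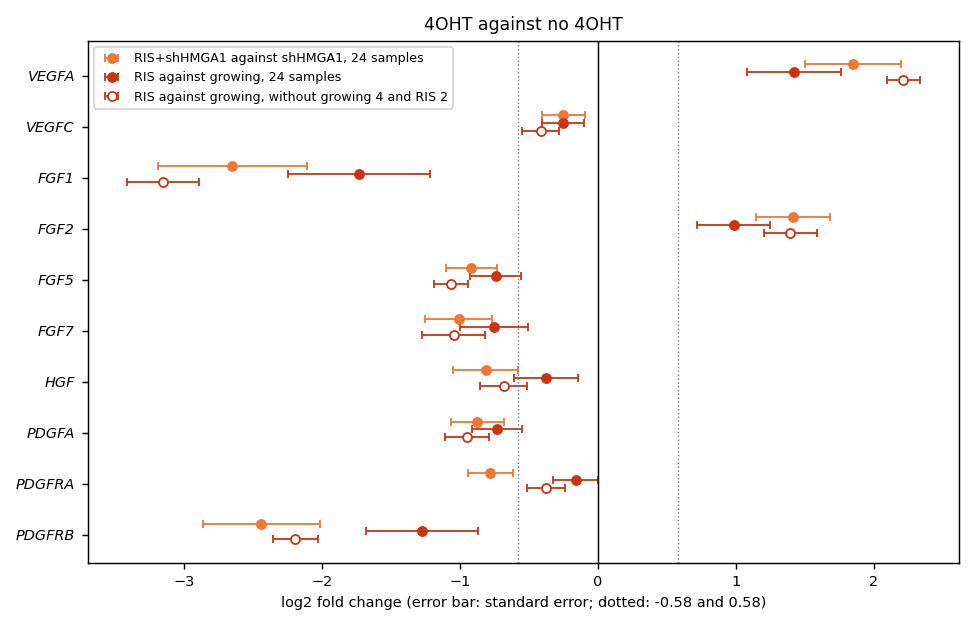
Log2 fold change with 4OHT for each gene, with its standard error, in cells with the hairpin (orange) and with the empty vector (red; open circles leave out growing replicate 4 and RIS replicate 2). *VEGFA* and *FGF2* lay to the right of 0 in all 3 fits and the other 8 genes to the left, with *FGF1* at -2.65 in RIS+shHMGA1 against shHMGA1 cells and at -3.15 in RIS against growing cells without the 2 departing samples.

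In RIS against growing cells, which share no sample with the comparison above, each of the 10 genes had the same sign of change, but none passed the thresholds with all samples. In edgeR no gene of the 13356 did (0%), although 4407 (33%) had an unadjusted p under 0.05, 7 of the members among them. DESeq2 called 826 genes (5.72%) and 5 members, *VEGFA*, *FGF1*, *FGF2*, *FGF5* and *PDGFA*. Without growing replicate 4 and RIS replicate 2, edgeR called 8 members, 2 higher and 6 lower, against 39.7% of all genes.

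*VEGFA* lay between 50.2 and 245 CPM (median 61.9) in growing and between 65.6 and 316 CPM (median 271) in RIS cells. The highest growing value was replicate 4 and the lowest RIS value replicate 2, and without these the groups were 50.2 to 70.9 and 251 to 316 CPM. The log2 change was 1.42 ± 0.34 (adjusted p = 0.0166) with all samples and 2.21 ± 0.12 (adjusted p = 1.14e-13) without the pair. *FGF2* lay between 139.9 and 436 CPM (median 227) in growing and between 186 and 628 CPM (median 525) in RIS cells. Its 2 highest growing samples after replicate 4 were replicates 5 and 6, at 275 and 303 CPM, and its log2 change went from 0.98 ± 0.27 (adjusted p = 0.0217) to 1.39 ± 0.19 (adjusted p = 1.31e-06) without the pair.

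*FGF1* lay between 5.40 and 34.6 CPM (median 25.5) in growing and between 1.69 and 27.1 CPM (median 3.4) in RIS cells, and 5 of 6 RIS samples were at or below 3.93 CPM. The log2 change was -1.73 ± 0.51 (adjusted p = 0.0311) with all samples and -3.15 ± 0.26 (adjusted p = 2.64e-10) without the pair. *FGF5* lay between 73.6 and 177 CPM (median 137) in growing and between 50.9 and 131 CPM (median 72.9) in RIS cells, a log2 change of -0.74 ± 0.19 (adjusted p = 0.018). Without the pair it fell by 1.07 on the log2 scale (adjusted p = 9.34e-08). *FGF7*, the FGF with the lowest level per length in growing cells, lay between 13.4 and 23.4 CPM (median 17.7) in growing and between 5.5 and 18.5 CPM (median 10.3) in RIS cells. Its log2 change of -0.75 ± 0.25 (adjusted p = 0.0433) became -1.04 ± 0.23 (adjusted p = 0.000394).

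*HGF* was split within the RIS group. Replicates 1, 3 and 4 were at 46.3, 46.6 and 45.6 CPM, and replicates 5 and 6 were at 71.9 and 93.2 CPM, the last of them above the 84.1 CPM of growing replicate 3. Its log2 change was -0.38 ± 0.23 (adjusted p = 0.262) with all samples and -0.68 ± 0.17 (adjusted p = 0.00149) without the pair, where the groups still overlapped. *PDGFA* changed by log2 -0.73 ± 0.18 (adjusted p = 0.0183), and by -0.95 ± 0.16 without the pair (adjusted p = 1.73e-05).

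*PDGFRB* lay between 27.0 and 226 CPM (median 179) in growing and between 31.2 and 189.7 CPM (median 40.8) in RIS cells. Growing replicate 4 was the lowest of these 12 samples, and RIS replicate 2 was above 3 of the 6 growing samples. The log2 change was -1.28 ± 0.40 (adjusted p = 0.0384), and -2.19 ± 0.16 (adjusted p = 4.43e-11) without the pair. *PDGFRA* and *VEGFC* did not pass in either fit. *PDGFRA* changed by log2 -0.16 ± 0.16 with all samples and -0.38 ± 0.14 without the pair (adjusted p = 0.494 and 0.0221), and *VEGFC* by -0.25 ± 0.15 and -0.42 ± 0.14 (adjusted p = 0.257 and 0.0105).

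The question of whether HMGA1 knockdown altered the growth factor genes was asked separately with and without 4OHT. In shHMGA1 against growing cells no member passed, against 0.27% of all genes tested (36 genes), and 2 members had an unadjusted p under 0.05, against 13.2% of all genes. DESeq2 called 97 genes (0.691%) and none of the members. Yet *FGF7* and *HGF* were higher in every one of the 6 shHMGA1 samples than in any growing sample, a separation in this direction that 0.749% of all genes showed. This share was taken with growing replicate 4 in the group, and the share without it is not given here. *FGF7* lay between 13.4 and 23.4 CPM in growing and between 24.7 and 45.0 CPM in shHMGA1 cells (log2 0.80 ± 0.24, adjusted p = 0.136). Without the departing pair its change was 0.73 ± 0.21 (adjusted p = 0.0232). *HGF* lay between 32.4 and 105 CPM in growing and between 107 and 129 CPM in shHMGA1 cells (log2 0.46 ± 0.23, adjusted p = 0.403). The 5 growing samples other than replicate 4 reached down to 84.1 CPM, and without the departing pair the *HGF* change was 0.29 ± 0.16 (adjusted p = 0.189). *PDGFRA* was higher in all 6 same-numbered samples, at 90.5 to 176 CPM in growing and 134 to 210.0 CPM in shHMGA1 cells, with overlapping groups (log2 0.38 ± 0.16, adjusted p = 0.304). Without the pair the *PDGFRA* change was 0.29 ± 0.13 (adjusted p = 0.112).

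*PDGFRB* was at 128 to 226 CPM in the 5 growing samples other than replicate 4 and at 94.4 to 133 CPM in shHMGA1 cells. With all samples its log2 change was -0.52 ± 0.40 (adjusted p = 0.625). Without the 2 departing samples *PDGFRB* was the single member called in this comparison (log2 -0.74 ± 0.15, adjusted p = 0.00284), against 2.59% of all genes. With growing replicate 4 alone left out, the sample of the pair that is in this comparison, it did not pass (log2 -0.74 ± 0.33, adjusted p = 0.145). RIS replicate 2 is outside this comparison and enters through the shared spread.

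In RIS+shHMGA1 against RIS cells no member passed with all samples, against 2.55% of all genes. *PDGFRB* came nearest. Its RIS samples lay between 31.2 and 189.7 CPM and its RIS+shHMGA1 samples between 17.0 and 23.4 CPM, so that all 6 hairpin samples were below all 6 samples without it, as was the case for 5.23% of all genes. That share was taken with RIS replicate 2 in the group. The log2 change was -1.68 ± 0.41 (adjusted p = 0.0112). Without growing replicate 4 and RIS replicate 2 it was smaller and passed (log2 -0.99 ± 0.15, 1.98-fold lower, adjusted p = 0.000376; 12.5% of genes called). With RIS replicate 2 alone left out, the sample of the pair that is in this comparison, the change had the same size and did not pass (adjusted p = 0.0396). With growing replicate 4 alone left out it passed (log2 -1.68, adjusted p = 0.00135). That sample is outside this comparison and enters through the shared spread. The change stayed at -1.68 while its standard error went from 0.41 to 0.33. *PDGFRB* also passed in DESeq2 (log2 -1.67, adjusted p = 0.00102; 12.2% of genes called).

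The other members differed less between the 4OHT groups. *PDGFA* was lower with the hairpin in 5 of 6 same-numbered samples, at 4.69 to 7.62 CPM in RIS and 3.41 to 5.26 CPM in RIS+shHMGA1 cells (log2 -0.51 ± 0.19, adjusted p = 0.0439). *FGF7* was higher in 5 of 6, at 5.5 to 18.5 CPM in RIS and 11.4 to 23.8 CPM in RIS+shHMGA1 cells (log2 0.54 ± 0.25, adjusted p = 0.0827). Without the departing pair *PDGFA* was at -0.41 ± 0.17 (adjusted p = 0.0528) and *FGF7* at 0.761 ± 0.225 (adjusted p = 0.0117), and neither passed. *VEGFA* changed by log2 0.06 ± 0.33 and *FGF2* by -0.09 ± 0.26 (adjusted p = 0.889 and 0.803), and the sign of *VEGFA* turned without RIS replicate 2 (-0.13). *FGF1* changed by -0.71 ± 0.54 with all samples and by 0.50 ± 0.28 without the departing pair. The interaction of hairpin and RAS, which asks whether the 4OHT response differed with the hairpin, passed for none of the members and none of the 13356 genes, with 1371 genes (10.3%) and 1 member at an unadjusted p under 0.05. DESeq2 called 4 genes (0.0196%) and no member. The member under 0.05 in edgeR was *PDGFRA* (interaction log2 -0.62 ± 0.23, unadjusted p = 0.0121, adjusted p = 0.426). Its log2 value with the hairpin was 0.38 in dividing cells and -0.24 after 4OHT, neither of which passed (adjusted p = 0.304 and 0.228). Without the departing pair the interaction was -0.40 ± 0.19 for *PDGFRA* and -0.37 ± 0.15 for *VEGFA* (unadjusted p = 0.0416 and 0.0256, adjusted p = 0.993 for both). With all samples that of *VEGFA* was 0.425.

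**Figure D3:**
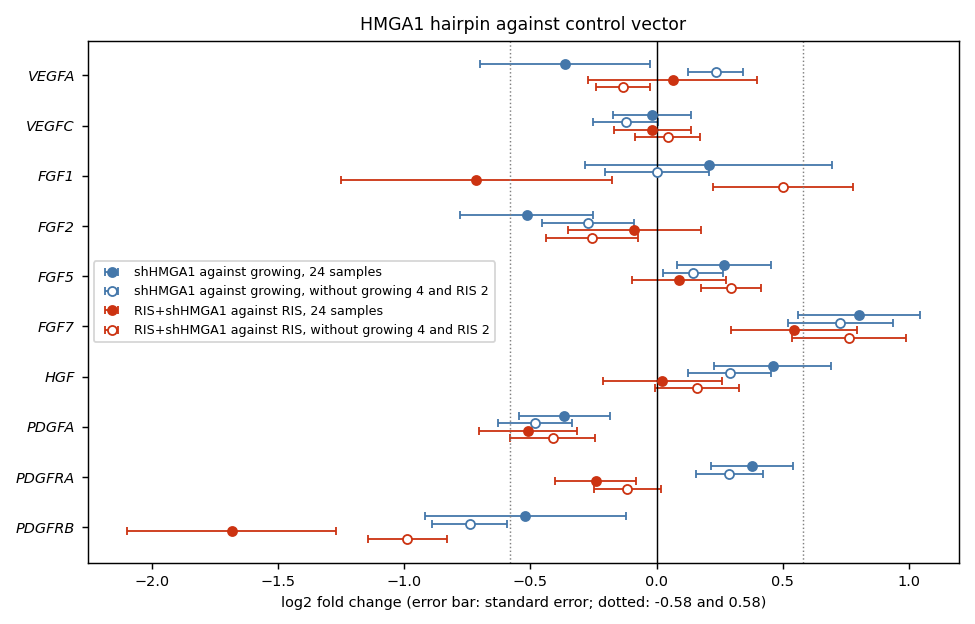
Log2 fold change with the hairpin for each gene, with its standard error, in dividing cells (blue) and after 4OHT (red); open circles leave out growing replicate 4 and RIS replicate 2. *FGF2*, *PDGFA* and *PDGFRB* lay to the left of 0 and *FGF5*, *FGF7* and *HGF* to the right in all 4 fits, of which *PDGFRB* alone passed, in both fits without the pair, with *PDGFRB* at -1.68 in RIS+shHMGA1 against RIS cells with all samples.

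Pairs of members changed in opposite directions or by different amounts, and their ratio within a sample (RPKM to RPKM) is given for 3 pairs. With all samples, growing and RIS cells overlapped in each of them. *VEGFA* to *VEGFC* was 0.202 to 0.291 (median 0.229) in shHMGA1 and 0.79 to 1.24 (median 1.13) in RIS+shHMGA1 cells, so that *VEGFC* exceeded *VEGFA* per length in all dividing samples with the hairpin and was near parity after 4OHT. The *FGF2* to *FGF1* ratio went from 2.84 to 5.93 (median 3.32) to between 40.4 and 139 (median 43.6). With the empty vector and without the departing samples the *FGF2* to *FGF1* ratio was 2.32 to 9.58 in growing and 74.7 to 209 in RIS cells. For both ratios the groups with the same 4OHT state overlapped. *PDGFRA* to *PDGFRB* had medians of 0.745 in growing and 1.4 in shHMGA1 cells, and of 2.57 in RIS and 4.52 in RIS+shHMGA1 cells. Its range was 1.17 to 1.76 in shHMGA1 cells and 3.51 to 6.43 in RIS+shHMGA1 cells, above the highest RIS value of 3.27, while shHMGA1 and RIS cells overlapped. These ratios are descriptions with no test, and the size of *VEGFA* to *VEGFC* depends on the transcript length used.

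**Figure D4:**
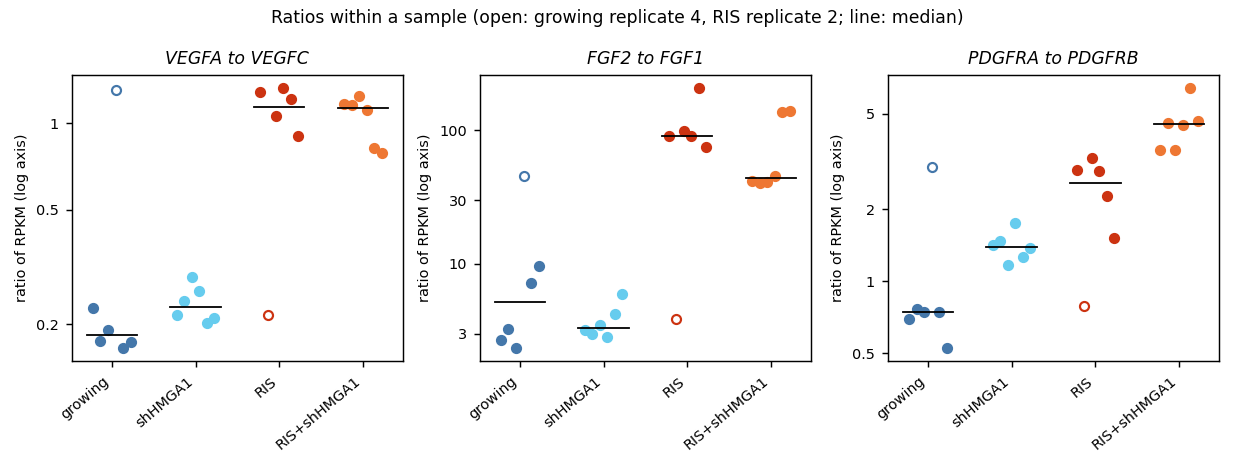
Ratios of RPKM within each sample on log axes, with group medians as lines and growing replicate 4 and RIS replicate 2 as open circles. The *PDGFRA* to *PDGFRB* ratio had medians of 0.745, 1.4, 2.57 and 4.52 from growing to RIS+shHMGA1 cells, and the 2 open circles sat nearer the opposite 4OHT state in all 3 panels.

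*FGF2* shares 804 exonic bases, 11.8% of its own, with *NUDT6*, a gene on the opposite strand. The libraries were stranded, but the strand setting of the counting is not given in the sources used here, so reads from the shared bases may have been counted for either gene. *NUDT6* ran from 26.9 to 34.6 CPM in shHMGA1 and from 58.6 to 105 CPM in RIS+shHMGA1 cells (log2 1.28 ± 0.26, adjusted p = 0.000487). Over the 24 samples, which share libraries and groups, *NUDT6* had the highest correlation with *FGF2* of all genes tested (Pearson r = 0.992), and r was 0.964 around the group means of the 22 samples other than the departing pair. Its level was well below that of *FGF2* in each sample. *PDGFRA* shares 16.1% of its exonic bases with ENSG00000282278 on the same strand, which was not among the identifiers counted, and the *FGF7* copies FGF7P3 and FGF7P6 had at most 7 counts in any sample.

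**Figure D5:**
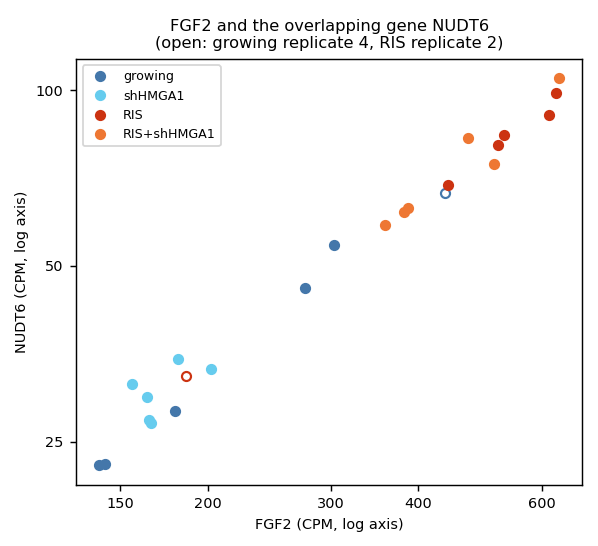
*NUDT6* against *FGF2* in the 24 samples, as CPM on log axes, coloured by group, with growing replicate 4 and RIS replicate 2 as open circles. The points rise together from 22.8 CPM of *NUDT6* at 139.9 CPM of *FGF2* to 105 CPM at 636 CPM (r = 0.992 on log2 CPM).

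Other genes of the same pathways were read from the same fit of RIS+shHMGA1 against shHMGA1 cells. Of 25 other ligands 8 were tested, of which 4 fell and 1 rose, with a median log2 change of -0.84 over the 8. The counts of this list and of those that follow stand beside 39.1% of all genes called, 19.6% higher and 19.5% lower. *PDGFB*, the main ligand of PDGFRB, fell by log2 -3.33, *PDGFD* by -3.12 and *PDGFC* by -1.25, so the PDGF ligands fell along with both receptors. *FGF9* was also called lower, but from a level of at most 1.99 CPM, so low that its fall is given as a description. *VEGFB* rose by 0.81. Of 13 receptors 9 were tested, and 4 fell: *FGFR3* (log2 -1.98), *FGFR1* (-1.40), the HGF receptor *MET* (-1.21) and *NRP2*, a co-receptor of VEGFC (-0.68). None rose. *FGFR1*, the FGF receptor of fibroblasts, went from 143 to 178 CPM down to 55.0 to 74.0 CPM.

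The receptors through which VEGFA and VEGFC act on endothelium were scarce in these cells. *KDR* stayed at or below 0.846 CPM and *FLT4* at or below 0.545 CPM in all 24 samples, and neither passed the filter, and *FGFR2*, whose epithelial form binds FGF7, was at or below 0.146 CPM. *FLT1*, a high-affinity VEGFA receptor, was present at 43.5 to 79.2 CPM in shHMGA1 and 12.1 to 40.8 CPM in RIS+shHMGA1 cells, and did not pass (log2 -1.28 ± 0.43, adjusted p = 0.0131). *NRP1* did not pass either (log2 -0.34, adjusted p = 0.0606), and *FGFR4* changed by -0.06.

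Of 34 genes for ligand processing and binding 23 were tested, and 11 fell and 2 rose, with a median log2 change of -0.77. Heparan sulphate chains hold FGFs and VEGFA at the cell surface, and most genes of this list make, carry or cut them, including *HS2ST1*, *NDST2* and *SDC1*, which did not pass. The 4 that fell most were *SULF1*, an extracellular sulphatase (log2 -3.16), *HS6ST1*, a sulphotransferase (-2.55), and the glypican core proteins *GPC6* (-2.47) and *GPC4* (-2.45). *HPSE*, the heparanase that cleaves these chains, was 1 of the 2 genes of the list called higher. It had at most 2 counts per sample (0.166 CPM) in shHMGA1 cells and lay between 1.30 and 3.39 CPM in RIS+shHMGA1 cells, and since it passed the filter through samples in which it was higher, these levels are given as a description. *SPINT1*, an inhibitor of the protease that activates HGF, rose by log2 1.44. Of 18 hypoxia response genes 16 were tested, and 3 rose and 2 fell, with a median log2 change of 0.03. Their part in the change of *VEGFA* was not tested. *ANKRD37* (1.35), *BNIP3* (1.07) and *ADM* (0.79) rose, whereas *LOX* (-1.46) and *SLC2A1* (-1.39) fell. Of 11 secreted angiogenesis regulators 10 were tested: *ANGPTL4* rose (1.65), and 6 fell, among them *THBS1* (-1.66) and *SERPINF1* (-1.37), which code for inhibitors of vessel growth, *SEMA3A* (-1.22) and *ANGPT1* (-1.13). The median over these 10 was -0.80, against -0.02 over all genes tested.

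In RIS+shHMGA1 against RIS cells few of these genes passed. *FGFRL1*, a receptor without a kinase domain, fell (log2 -0.71, adjusted p = 0.00206), *SEMA3C* fell (-0.76, adjusted p = 0.00542), and *SDC2*, a syndecan, rose (0.92, adjusted p = 0.00298). In shHMGA1 against growing and in RIS against growing cells none of the 66 tested genes of these lists passed with all samples. Without the departing pair these counts were larger. In RIS against growing cells, where 39.7% of all genes were then called, 1 other ligand rose and 4 fell, 0 receptors rose and 4 fell, 6 genes for ligand processing and binding rose and 10 fell, 4 hypoxia response genes rose and 3 fell, and 1 angiogenesis regulator rose and 4 fell. For shHMGA1 against growing cells (2.59% of all genes), 3 genes for ligand processing and binding and 1 hypoxia response gene fell. Between the 4OHT groups (12.5% of all genes), 1 other ligand, 1 receptor, 3 genes for ligand processing and binding and 3 angiogenesis regulators fell, and 1 gene for ligand processing and binding and 1 hypoxia response gene rose. The ligand was *PDGFB* (log2 -1.31, adjusted p = 0.00276).

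The genes whose log2 CPM over the 24 samples was most like that of a member are given as a description. For *VEGFA* these were *CSF3*, a secreted cytokine (r = 0.992), *PREX1* (0.991) and *CHST2* (0.989). *PDGFRB* was most like *PTPRF* (0.991), *CAVIN1* (0.99) and *MYO1C* (0.989), *FGF1* most like *CPED1* (0.983), *TSC22D3* (0.978) and *CALHM5* (0.976), and *FGF2*, after *NUDT6*, most like *ATP2B1* (0.97) and *RPS6KA3* (0.967). *FGF5* ran with *DDIAS* (0.974) and the cell division genes *TRIP13* (0.973) and *DEPDC1* (0.972). *FGF7* was most like *HAUS4* (0.922), *PCLAF* (0.914) and *DUBR* (0.901). *HGF* ran with the genes of the secreted proteins *PTX3* (0.954) and *SERPINE2* (0.935), *PDGFRA* with *APOL6* (0.932), *C3* (0.915) and *ARHGAP28* (0.911), and *PDGFA* with *PFKP* (0.934), *KLF7* (0.931) and *JPT2* (0.931). *VEGFC* had the lowest leading value, with *FOXC1* (0.914), *HYOU1* (0.889) and *ARF6* (0.887). The samples share group and 4OHT state, and around group means in the 22 samples other than the departing pair r fell to 0.641 for *VEGFA* and *CSF3* and stayed at 0.842 for *VEGFC* and *FOXC1*.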

How the data were processed

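RNA was sequenced from 24 samples of IMR90 ER:HRAS(G12V) cells, and the group and replicate number of each were taken from its labels. The authors mapped stranded mRNA-seq reads to hg19 with STAR 2.5.0b, removed reads of low mapping quality and adapters with cutadapt 1.10.0, and deposited raw counts per Entrez gene identifier, counted with Rsubread. The Rsubread version, annotation and strand setting are not given in the sources used here, so reads shared by overlapping genes may lie with either. The labels call the replicates biological. Nothing says that they were separate cultures, so p-values measure the spread between these samples. No pair of samples held identical counts.

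Symbols were assigned by Entrez identifier from RefSeq (23696 of 25702 identifiers). Genes were filtered with filterByExpr, library sizes were normalised by TMM, and the 24 samples entered 1 quasi-likelihood fit of group means in edgeR 4.0.16 (R 4.3.3, limma 3.58.1). The study's thresholds were used for calls: an FDR (Benjamini-Hochberg) under 0.01 together with a log2 fold change of more than 0.58 in size. Levels are CPM on TMM library sizes, with a prior count of 2 for log2 values, and RPKM on canonical GENCODE transcripts of GRCh37. The total count had a median of 10604083 per sample. Promoter windows are those of RefSeq, found for 9 of the 10 members and matched to GRCh37. 

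Besides the members, the text names up to 4 called genes per list, direction and comparison with the largest changes, the main receptors, 3 most similar genes per member and overlapping genes, of which 1 is not reported here. The members and all lists were chosen with earlier results of these data known. Alternatives were DESeq2 1.42.0, RLE normalisation, no filter or a minimum of 1 CPM in 6 samples, a replicate block, the samples of the contrast only, an FDR of 0.05 and leaving out each replicate number. Fits without growing replicate 4 or RIS replicate 2 were added after the data were seen. The scripts were tested on simulated data.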

Additional observations from a re-analysis of the deposited data

Results flagged for a closer look

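For each of the 10 genes and 4 groups, the gap between the highest or the lowest sample and its nearest neighbour was divided by the range of the group. In 6 of 40 groups this share passed Dixon's critical value, where chance passes about 2, and all 6 concern the samples that departed from their labels. *VEGFA* in growing replicate 4 (245 CPM, the next sample at 70.9) had a share of 0.894, and *HGF* in the same sample (32.4 CPM, the next at 84.1) had 0.714. In RIS replicate 2 the share was 0.74 for *VEGFA* (65.6 CPM, the next at 251), 0.912 for *FGF1* (27.1 CPM, the next at 3.93), 0.683 for *PDGFRA* (168 CPM, the next at 117) and 0.849 for *PDGFRB* (189.7 CPM, the next at 55.1). No cause of these departures was tested.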

How the results depend on the processing

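In RIS+shHMGA1 against shHMGA1 cells the count of members called stayed within 1.5 times of 9 under every alternative run, while genes called ran from 3037 to 5777 when a replicate was left out, against 5220. In RIS against growing cells 0 genes and 0 members were called with all samples, 826 and 5 by DESeq2, 1537 and 7 at an FDR under 0.05, 0 to 3420 and 0 to 7 with 1 replicate left out, and 5331 and 8 without growing replicate 4 and RIS replicate 2, which was chosen after the data were seen. In shHMGA1 against growing cells the 36 genes became 23 with no filter on low counts, 5 with the samples of the contrast only, 97 by DESeq2, 85 at an FDR under 0.05, 5 to 67 with a replicate left out and 348 without the pair, where 1 member was called. In RIS+shHMGA1 against RIS cells the 341 genes became 189 with no filter, 1567 by DESeq2, 2898 at an FDR under 0.05, 14 to 2555 with a replicate left out and 1677 without the pair. Members called there went from 0 to 1 by DESeq2, at an FDR under 0.05 and without the pair, and to between 0 and 2 with a replicate left out, the second being *PDGFA* without replicate 4 (log2 -0.63, adjusted p = 0.00782). The interaction called 0 genes, 4 by DESeq2, 2 at an FDR under 0.05, 0 to 1 with a replicate left out and 1 without the pair. The cause of these moves was not tested.

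Some values that had not passed changed sign, most of them near 0. In shHMGA1 against growing cells *VEGFA* (-0.36) ran from -0.57 to 0.23, *VEGFC* from -0.12 to 0.061 and *FGF1* from -0.071 to 0.35 with a replicate left out, and *VEGFA* was at 0.23 without the pair. In RIS+shHMGA1 against RIS cells the ranges were -0.13 to 0.17 for *VEGFA*, -0.10 to 0.10 for *VEGFC*, -0.94 to 0.50 for *FGF1*, -0.26 to 0.034 for *FGF2*, -0.008 to 0.29 for *FGF5* and -0.061 to 0.21 for *HGF*. Without the pair *VEGFA* was at -0.13, *VEGFC* at 0.043 and *FGF1* at 0.50, *VEGFC* was at 0.001 with RLE normalisation, and *HGF* at -0.008 with the samples of the contrast only. For the interaction the ranges were -0.17 to 0.63 for *VEGFA*, -0.16 to 0.11 for *VEGFC*, -1.28 to 0.30 for *FGF1* and -0.37 to 0.028 for *FGF5*. Without the pair the interaction was -0.37 for *VEGFA*, 0.50 for *FGF1*, 0.15 for *FGF5*, 0.033 for *FGF7* and 0.069 for *PDGFA*, and *VEGFC* was at -0.006 with no filter.

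Same-numbered samples did not deviate together throughout: between RIS and growing cells their correlations ran from -0.594 to 0.828, and 3 of 6 were over 0.1. In the other comparisons 5 of 6 were over 0.1, with correlations from 0.075 to 0.481 in shHMGA1 against growing, -0.023 to 0.326 in RIS+shHMGA1 against shHMGA1 and -0.202 to 0.53 in RIS+shHMGA1 against RIS cells. Of the 12 samples of a comparison, 3 to 8 were closest to the sample of their own number. Between RIS and growing cells the highest values were 0.828 at number 4 and 0.766 at number 2. These are the numbers of the departing samples, and correlations without those samples are not given here. Pairing was taken to need every correlation over 0.1, which no comparison met, so the numbers were not used to pair the samples. In shHMGA1 against growing cells only number 3 fell short, at 0.075. There 8 of 12 samples, the most of any comparison, were closest to their own number. The rule thus does not decide whether same-numbered samples were related, and their counts elsewhere are descriptions. With the replicate number as a block, 1 gene was called in RIS against growing and 1637 in RIS+shHMGA1 against RIS cells, where *PDGFRB* was the 1 member called (log2 -1.43, adjusted p = 0.00906). *VEGFC* under the block was at 0.014 in shHMGA1 against growing cells and at -0.044 for the interaction.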

Other observations

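Replicates 5 and 6 lay outside the other replicates named here in some members and groups. *FGF1* was at 21.6 and 17.8 CPM in growing replicates 5 and 6 against 29.5 to 34.6 CPM in replicates 1 to 3. In shHMGA1 cells it was at 20.7 and 19.2 CPM against 27.0 to 32.5 CPM in replicates 1 to 4, and in RIS+shHMGA1 cells at 2.61 and 2.08 CPM against 4.82 to 5.85 CPM. *FGF2* went the other way in growing cells, at 275 and 303 CPM against 139.9 to 179.5 CPM in replicates 1 to 3, and in RIS+shHMGA1 cells at 636 and 514 CPM against 358 to 471 CPM. *VEGFC* was at 183 and 215 CPM in RIS+shHMGA1 replicates 5 and 6 against 128 to 141 CPM in the others. *PDGFRA* was at 107 and 121 CPM in growing replicates 5 and 6 against 138 to 176 CPM in replicates 1 to 3. In other groups they did not stand apart: *FGF1* in RIS replicates 5 and 6 was at 1.69 and 3.93 CPM around the 2.74 to 3.53 CPM of replicates 1, 3 and 4, *FGF2* in shHMGA1 cells at 156 and 202 CPM around 164 to 181 CPM, and *PDGFRA* in RIS+shHMGA1 cells at 122 and 94.4 CPM, the latter within the 87.4 to 108 CPM of the others. The labels name no batch, and these replicates were singled out after their values were seen.

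Around the group means of the 22 samples other than growing replicate 4 and RIS replicate 2, *VEGFC* followed *FGF2* (Pearson r = 0.75) and *HGF* (0.638) and ran against *FGF1* (-0.752), although *VEGFC* and *FGF2* were at -0.369 over the same 22 samples when group differences were kept. *FGF1* and *FGF2* ran against each other in both readings (-0.951 with group differences and -0.625 without). These values are descriptions over samples that share groups and replicate numbers. They include replicates 5 and 6, where *VEGFC* and *FGF2* were high and *FGF1* low in RIS+shHMGA1 cells. Values without those replicates are not given here.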
